A study of Mus musculus with 4 samples.

Results

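Of the 53883 genomic regions obtained by merging the open-chromatin peaks of 4 mouse muscles wherever they shared at least 1 base, 4361 held a peak of the extensor digitorum longus (EDL), the quadriceps (Quad) and the soleus (Sol) and none of the diaphragm (Dia). These hindlimb regions not called in Dia were selected on the peak calls alone, so their presence in 3 lists and absence from the fourth is a description and not a result. They made up 23.1% of the 18858 regions with a peak in all 3 hindlimb muscles (95% Wilson interval 22.5 to 23.7%), and the other 14497 also held a Dia peak.

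All 4 groups were labelled wild type C57BL/6 mice with no allele or treatment, and the study's methods describe male C57BL/6J animals. Frozen whole muscle was assayed by ATAC-seq, in which a transposase inserts sequencing adapters into accessible DNA. Each muscle had 1 peak list, from a library that the labels call pooled with the number of replicates it combines not given, so no difference between muscles could be tested, and the intervals given here cover counting error only, with regions that are not independent replicates. The lists held 30136 peaks for EDL, 40337 for Quad, 28784 for Sol and 21582 for Dia, and the steps between their scores implied 103900000, 78100000, 104600000 and 99300000 tags, so the shortest list did not come from the fewest tags. Ttn, which encodes the giant sarcomere protein titin, had 7 peaks in each hindlimb list and 6 in Dia, and Des, which encodes the muscle intermediate filament desmin, had 3, 5, 4 and 2 peaks in EDL, Quad, Sol and Dia. In whole tissue, fewer nuclei of a cell type and less accessible chromatin per nucleus cannot be told apart.

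Limb muscles form from progenitors that migrate out of trunk somites into the limb bud, whereas the diaphragm is built from progenitors of neck somites that enter a separate fold of connective tissue. The position of a tissue along the body is recorded by the Hox genes, which lie in 4 clusters and are used in order along the head-to-tail axis, the posterior members patterning the limb. EDL and Quad are mostly fast muscles that contract in bursts, Sol is slow and postural, and Dia is a mixed muscle that works without pause.

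The sequences below are EDL peaks of such regions, read from the reference genome (GRCm38, mm10, plus strand). The first set holds the highest-scored regions with no Dia peak within 10 kb that lay outside promoters and did not overlap an exon. Capitals mark matches to 17 motifs searched on both strands, and their letters, or for MEF2 and SRF the name alone, are given with the motif results. Mylk2 (chr2:152914506-152914714, intron 3) encodes the skeletal myosin light chain kinase. Junb (chr8:84979891-84980099, intergenic) encodes an AP-1 subunit, Lsp1 (chr7:142462328-142462536, intron 1) a leukocyte actin-binding protein, Cbfa2t3 (chr8:122651677-122651885, intron 1) a transcriptional corepressor, Ttc4 (chr4:106666808-106667016, intron 8) a tetratricopeptide-repeat protein, and Plec (chr15:76207501-76207709, intron 1) the cytolinker plectin.
Mylk2: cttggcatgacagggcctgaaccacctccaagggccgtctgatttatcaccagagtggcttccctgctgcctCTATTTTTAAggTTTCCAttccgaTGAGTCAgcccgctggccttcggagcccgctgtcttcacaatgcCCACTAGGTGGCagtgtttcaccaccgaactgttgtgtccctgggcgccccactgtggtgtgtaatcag
Junb: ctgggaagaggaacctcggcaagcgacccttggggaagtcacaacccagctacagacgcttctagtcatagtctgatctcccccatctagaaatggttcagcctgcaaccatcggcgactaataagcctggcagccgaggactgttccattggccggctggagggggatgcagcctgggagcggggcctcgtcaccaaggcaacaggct
Lsp1: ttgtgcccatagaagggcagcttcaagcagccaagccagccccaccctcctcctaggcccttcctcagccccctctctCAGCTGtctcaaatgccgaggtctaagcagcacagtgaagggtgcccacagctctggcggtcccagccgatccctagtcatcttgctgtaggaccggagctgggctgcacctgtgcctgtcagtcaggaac
Cbfa2t3: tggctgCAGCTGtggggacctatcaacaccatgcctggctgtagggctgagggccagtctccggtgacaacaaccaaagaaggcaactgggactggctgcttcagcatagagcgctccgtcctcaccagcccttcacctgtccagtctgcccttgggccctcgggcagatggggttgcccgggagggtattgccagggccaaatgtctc
Ttc4: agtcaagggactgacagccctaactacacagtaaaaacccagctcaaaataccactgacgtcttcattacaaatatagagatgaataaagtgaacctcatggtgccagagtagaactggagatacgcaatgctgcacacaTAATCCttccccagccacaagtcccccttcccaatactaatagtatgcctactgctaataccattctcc
Plec: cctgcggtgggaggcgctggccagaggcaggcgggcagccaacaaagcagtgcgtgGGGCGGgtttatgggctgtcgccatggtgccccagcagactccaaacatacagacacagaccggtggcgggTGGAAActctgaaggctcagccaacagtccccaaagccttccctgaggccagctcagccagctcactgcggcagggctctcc

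A second set was chosen after the values were seen, because each lies at a gene that recurs in the results. Myod1 (chr7:46376132-46376340) is the promoter peak of the myogenic determination factor MyoD. Tnni2 (chr7:142441489-142441697) is the peak upstream of fast skeletal troponin I. H19 (chr7:142600444-142600652) lies upstream of the imprinted H19 RNA gene, and Gadl1 (chr9:115998520-115998728) in an intron of a gene with no Dia peak at all.
Myod1: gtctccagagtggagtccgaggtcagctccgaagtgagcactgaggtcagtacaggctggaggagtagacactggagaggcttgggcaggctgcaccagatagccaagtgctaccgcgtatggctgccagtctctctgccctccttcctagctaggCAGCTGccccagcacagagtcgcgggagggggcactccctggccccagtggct
Tnni2: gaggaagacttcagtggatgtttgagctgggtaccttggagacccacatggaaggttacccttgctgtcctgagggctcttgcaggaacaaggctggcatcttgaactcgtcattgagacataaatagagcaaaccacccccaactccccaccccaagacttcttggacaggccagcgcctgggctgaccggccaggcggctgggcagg
H19: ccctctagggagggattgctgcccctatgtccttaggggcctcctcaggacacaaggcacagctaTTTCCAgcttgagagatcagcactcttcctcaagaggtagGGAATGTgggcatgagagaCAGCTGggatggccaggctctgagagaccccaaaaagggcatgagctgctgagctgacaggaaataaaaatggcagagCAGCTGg
Gadl1: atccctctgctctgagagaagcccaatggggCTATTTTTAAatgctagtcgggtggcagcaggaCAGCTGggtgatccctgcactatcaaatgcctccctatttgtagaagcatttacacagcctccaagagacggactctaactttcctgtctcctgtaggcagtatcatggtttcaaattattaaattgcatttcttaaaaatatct
The Mylk2 and Gadl1 peaks both held a MEF2 match with the same letters, and the Mylk2 peak also held AP-1, NFAT and CTCF matches. E-box matches were found in the Lsp1, Cbfa2t3, Myod1, H19 and Gadl1 peaks, and the H19 peak held 2 of them. None of the 17 motifs was found in the Junb and Tnni2 peaks.

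The absence of a Dia peak was more frequent than the absence of any other single list. Among regions with the other 3 muscles, the Sol peak was missing in 7.44% (1166 of 15663), the EDL peak in 6.00% (926 of 15423) and the Quad peak in 3.91% (590 of 15087). The Dia list was the shortest, and its lowest score of 3.63 was above the 3.27, 3.20 and 3.06 of EDL, Quad and Sol. When each list was limited to its top 20000 peaks by score, Dia was missing in 13.7% of regions (1796 of 13091), against 6.06% for Sol, 6.30% for EDL and 8.59% for Quad, and 1733 of those 1796 regions were among the 4361.

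Regions not called in Dia lay away from promoters. Of the 4361, 492 (11.3%) were annotated as promoters, 2243 (51.4%) as intragenic, of which 2028 were intronic, and 1626 (37.3%) as intergenic. The promoter share was 18.9% in the upper 50% of each list and 20.8% with all hindlimb scores at least 2 times the lowest Dia score. The promoter share minus that of regions of all 4 lists was -41.1 percentage points (Newcombe interval -42.3 to -39.8), and minus that of regions of all 4 lists limited to the same range of percentiles, whose median lowest percentile was still 48.7 against 30.1, it was -28.3 points (-29.7 to -26.9). Minus that of the 1166 regions missing from Sol only it was -13.4 points (-16.1 to -10.8). The median distance to a transcription start site (TSS) was 20645 bp, compared with 240 bp for regions of all 4 lists, 5846 bp in the same percentile range and 12174 bp for regions missing from Sol only. Read the other way, 35.9% of the 10774 3-hindlimb regions outside promoters had no Dia peak (3869 regions), against 6.09% of the 8084 at promoters. The class was the same in all 3 peak annotations for 4326 of the 4361 regions and the nearest gene for 4346, and each region consisted of exactly 3 peaks.

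**Figure D1:**
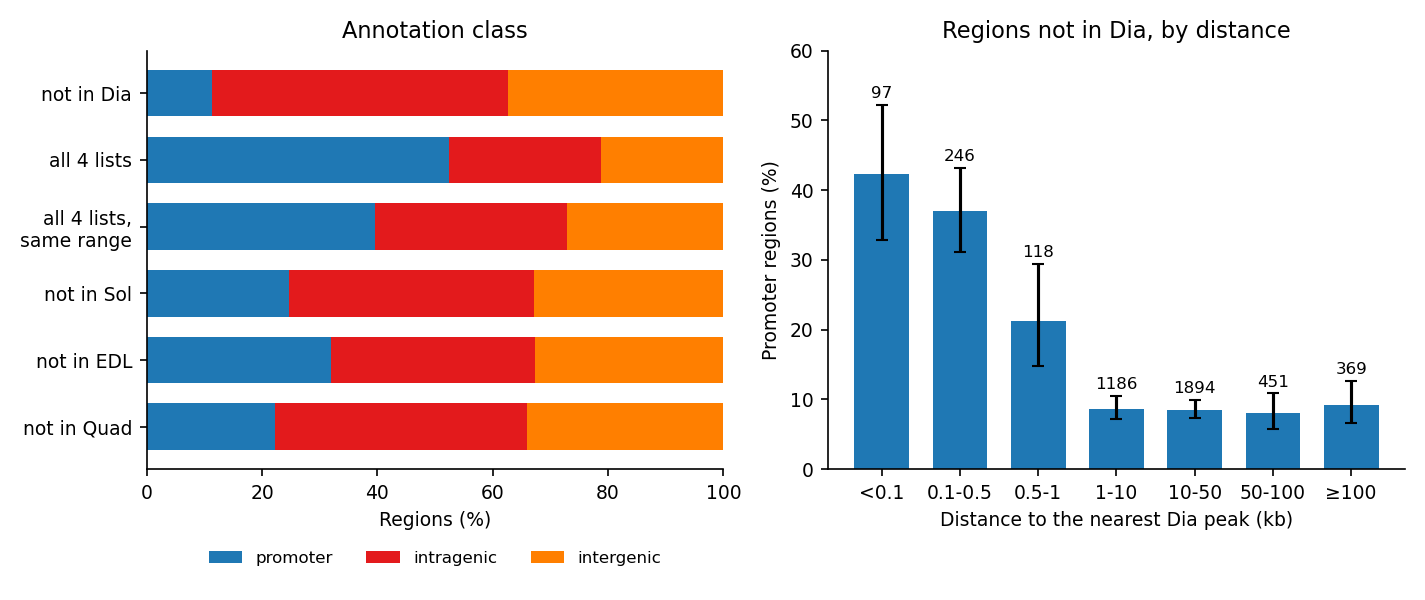
Left, share of regions (%) annotated as promoter, intragenic or intergenic, for regions not in Dia, regions of all 4 lists, the latter within the same percentile range, and regions missing from 1 other list. Right, promoter share (%) of regions not in Dia by distance to the nearest Dia peak in kb, with 95% Wilson intervals and the number of regions above each bar. The promoter share was 42.3% for the 97 regions under 0.1 kb from a Dia peak and between 7.98 and 9.21% in the 4 bins from 1 kb outward.

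Their scores were moderate. HOMER's peak score is a tag count scaled to 10000000 tags, and it was ranked within each list so that 100 is the highest. The median percentile of the 4361 regions was 42.1 in EDL, 52.1 in Quad and 40.5 in Sol, and for regions of all 4 lists it was 71.3, 78.4 and 71.1. Median scores were 6.25, 6.79 and 6.31, so a typical region carried 65, 53 and 66 tags. The percentile was highest in Quad for 2394 regions (54.9%) and lowest in Sol for 1907 (43.7%). Across the 4361 regions Spearman's rho was 0.72 between EDL and Quad, 0.64 between EDL and Sol and 0.59 between Quad and Sol. For regions of all 4 lists rho was 0.88, 0.87 and 0.86 in the same order. These correlations are descriptions across regions that share libraries and were selected by the calls, and the cause of their difference was not tested.

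**Figure D2:**
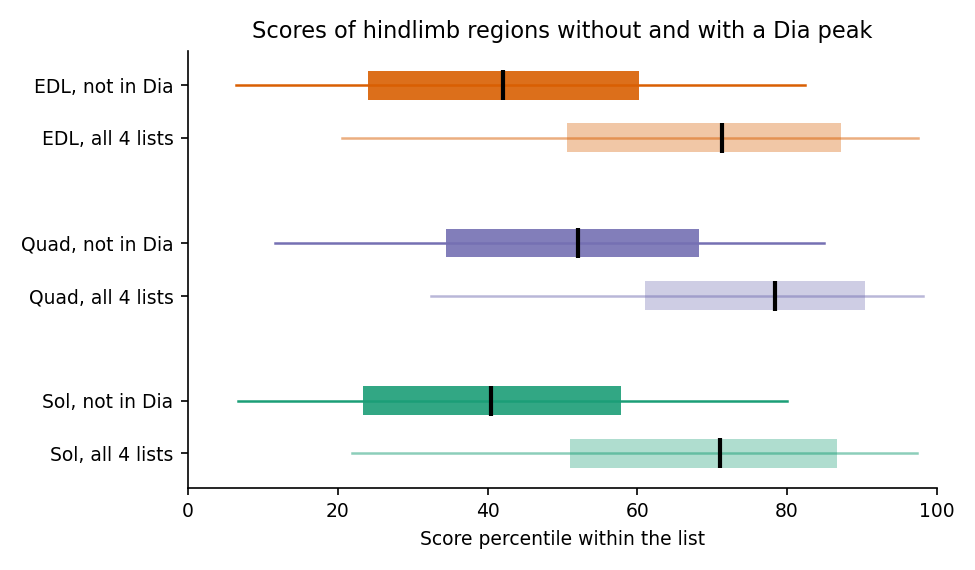
Score percentile within each list (0 to 100) of the 4361 regions not in Dia and the 14497 regions of all 4 lists. Ticks are medians, bars span the quartiles and lines the 5th to 95th percentile. Regions not in Dia were lower in each list, with medians of 42.1, 52.1 and 40.5 against 71.3, 78.4 and 71.1.

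The share without a Dia peak depended on the score. Taking for each region its lowest hindlimb percentile, 59.1% of regions between 0 and 10 (707 of 1197) had no Dia peak, against 28.3% between 40 and 50 (570 of 2011) and 1.47% between 90 and 100 (34 of 2312). Promoters had the lower share at each level, from 33.8% (46 of 136) in the lowest bin to 0.865% (17 of 1966) in the highest. All 3 hindlimb scores were at least 2 times the lowest Dia score, that is 7.26 or more, in 895 of the 4361 regions (20.5%), and 8.79% of all 3-hindlimb regions at that level lacked a Dia peak. A region without a called Dia peak is therefore not shown to be closed in Dia.

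**Figure D3:**
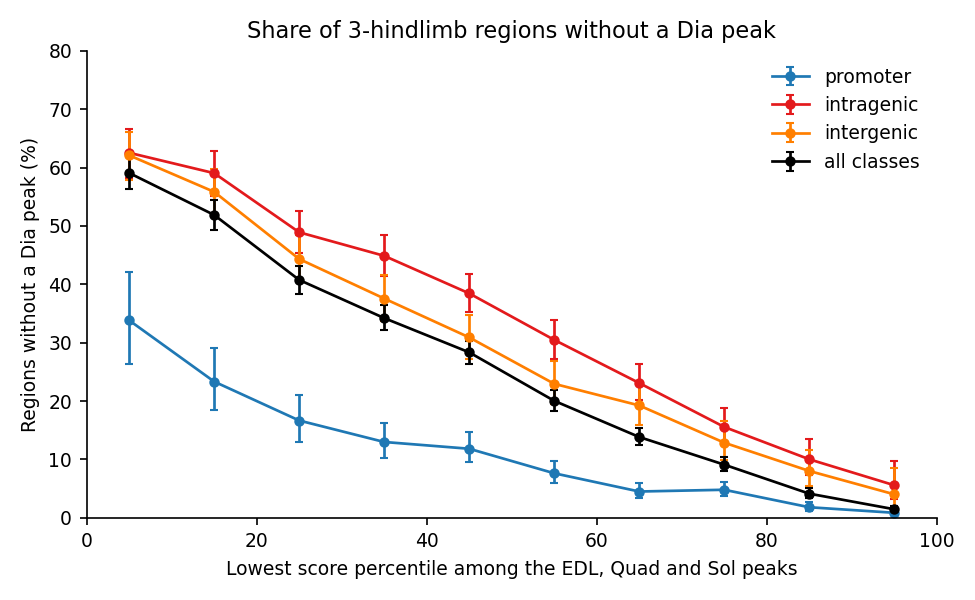
Share of 3-hindlimb regions without a Dia peak (%) against the lowest of their 3 hindlimb score percentiles in bins of 10, by annotation class, with 95% Wilson intervals. The share over all classes went from 59.1% in the lowest bin to 1.47% in the highest, and the promoter line lay below the others in each bin.

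The median distance to the nearest Dia peak was 15285 bp, 2714 regions (62.2%) had none within 10 kb and 369 had none within 100 kb. The share with none within 10 kb was 47.4% in lists limited to their top 20000 peaks and 33.2% among the regions with all scores at least 2 times the lowest Dia score. Regions missing from Sol only, EDL only and Quad only had no peak of the missing list within 10 kb in 49.7%, 49.6% and 34.4% of cases. At the other end, 343 regions (7.87%) lay within 500 bp of a Dia peak, and these were promoter-rich, with 41 promoters among the 97 under 100 bp and 91 among the 246 between 100 and 500 bp. Regions under 100 bp from a Dia peak had a median lowest percentile of 53.7, whereas those 100 kb or more away had a median of 17.6.

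The highest-scored of the 4361 regions belonged mainly to the near group. The region nearest to Lrrc4c, 1194615 bp from its TSS, had scores of 101.9 in EDL, 109.4 in Quad and 88.1 in Sol, and a Dia peak at the 99.99th percentile of the Dia list lay 229 bp away. The next were a region nearest to Gm5458, with a Dia peak 1883 bp away, the Leprot promoter (48 bp) and a region nearest to Mir101c (35 bp). The Dia peaks beside the Gm5458 and Mir101c regions were at the 99.97th and 99.7th percentiles of the Dia list. Peaks were not filtered here for repeats or poorly mappable sequence. The extreme scores at the intergenic Lrrc4c, Gm5458 and Mir101c regions are therefore not shown to reflect accessible chromatin. The Relb intron 1, Smdt1 promoter, Capn10 promoter and Fem1c promoter regions had a Dia peak within 8, 45, 29 and 11 bp, and Tef within 313 bp. Of the 10 highest only the Midn promoter was more than 2 kb from a Dia peak, at 7001 bp.

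The boundary of the selection was narrow. Regions nearest to 1110038F14Rik and Peg3 abutted a Dia peak with 0 bases between them, and those at Slc8a1 and Gm16675 were 1 base away. Just outside the selection, regions at 4933440J02Rik, Nudt14, Supt16, Fez2 and Aven overlapped the Dia peak by 1 base. In all, 15 of the 4361 regions lay under 10 bases from a Dia peak, and 24 regions of all 4 lists overlapped it by at most 10 bases. The Peg3 region, in intron 1 of this paternally expressed imprinted gene, scored 18.4 in EDL, 21.4 in Quad and 23.5 in Sol beside a Dia peak at the 90.01st percentile.

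The highest-scored regions with no Dia peak within 10 kb included both promoters and introns. The Sphk2 promoter (sphingosine kinase) was at the 93.3rd percentile in EDL, 94.6th in Quad and 97.1st in Sol, with a Dia peak 10039 bp away. The Mylk2 intron 3 region scored 17.4, 17.3 and 15.5 (percentiles 92.8, 92.6 and 90.3), and the nearest Dia peak was 47597 bp away. Mylk2 had a second such region at -12130 bp from the TSS (percentiles 82.1, 79.9 and 41.6), and no Dia peak was assigned to the gene. The Lsp1 intron 1 region was at percentiles 91.5, 93.0 and 86.7, and the Art5 promoter at 90.04, 87.7 and 83.1. The other 6 of the top 10 were the Junb and Zmiz1 upstream regions, the Ppp1r13l promoter and introns of Cbfa2t3, Ttc4 and Plec, whose percentiles lay between 83.0 and 91.4.

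Regions not called in Dia were spread over 3345 of the 17157 genes with a peak in any list (19.5%), and 2605 of these genes had 1 region, 539 had 2 and 201 had 3 or more. Slco3a1, an organic anion transporter, had the most, with 7 of its 12 3-hindlimb regions. There were 6 regions nearest to each of Palld, which encodes an actin-bundling protein of Z-discs and stress fibres (6 of 7), Dst, the cytolinker dystonin (6 of 8), and Ptprg, a receptor tyrosine phosphatase (6 of 15). The genes with 5 were Sec61b (5 of 8), Kcnma1, Herc1, Apbb2 and Dapk2 (5 of 7 each) and Nr3c1 (5 of 11). The ranking is by count and is not matched for the number of 3-hindlimb regions per gene. Over all genes the share without a Dia peak was 23.1%, and outside promoters 35.9%. Regions are counted by nearest TSS, and those at -80208 and -81487 bp from the Herc1 TSS lay in the transcript that held the 5 Dapk2 regions. Kcnma1, the large-conductance calcium-activated potassium channel, had all 5 in introns, the highest at percentiles 84.0, 76.4 and 69.3. The 5 regions at Nr3c1, the glucocorticoid receptor, lay between -94827 and 163314 bp from the TSS.

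For 753 of the 3345 genes (22.5%) no Dia peak was assigned at all. The share without a Dia peak among all genes with a peak was not taken, so this value has no matching share. Among the 753, Mreg, which encodes melanoregulin, Samd7 and Gadl1 had 4 regions each. All 4 regions at Mreg, from its promoter (percentiles 34.3, 46.5 and 49.0) to intron 2 (72.4, 57.9 and 75.2), were more than 10 kb from a Dia peak. The 4 regions at Gadl1, an acidic amino acid decarboxylase expressed in muscle, lay in introns 11 and 12, and the nearest Dia peak was at least 136396 bp away. In all, 13 genes had 3 or more such regions and no Dia peak, and the next 7 in order of their scores were Pitpnm2, Stac3, Mir6338, Cldn19, Htra4, Sdc3 and Aqp4. The highest of the Aqp4 regions (the aquaporin of the fast-fibre sarcolemma) was at percentiles 85.7, 84.0 and 66.0, with 682006 bp to the nearest Dia peak. It lay at -54470 bp from the Aqp4 TSS, and the others at -115244 and -149240 bp. All were annotated as intronic, as were Stac3 regions at -12071 and -20064 bp. Introns so far upstream of the nearest TSS belong to another transcript, so the nearest gene need not be the gene that holds the region.

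Each region lies between Dia peaks by the selection itself, and most were alone there. Between consecutive Dia peaks, 2901 stretches held 1 region, 507 held 2 and 132 held 3 or more, and the largest number was 12, in a stretch of 723243 bp (chr7:142284903-143008145). It contained 17 EDL, 25 Quad and 17 Sol peaks and covers Ctsd, Syt8, Tnni2, Lsp1, Tnnt3, Mrpl23, H19 and Igf2. This stretch and the loci that follow were picked after their values were seen. The Tnni2 region, at -875 bp from the annotated TSS and called promoter, was at percentiles 88.6 in EDL, 88.3 in Quad and 80.8 in Sol, and its nearest Dia peak was 156586 bp away. The Ctsd promoter (the lysosomal protease cathepsin D) was at 75.8, 90.6 and 84.0. The region at -22404 bp from the H19 TSS was at 92.0, 92.1 and 82.7, and one nearest to Prr33, at the 3′ end of the fast troponin T gene Tnnt3, was at 86.9, 90.3 and 69.9. The Tnnt3 promoter itself had peaks in Quad (92.9) and Sol (88.4) but none in EDL or Dia, so it was not among the 4361. Limiting each list to its top 20000 peaks left 8 of the 12.

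**Figure D4:**
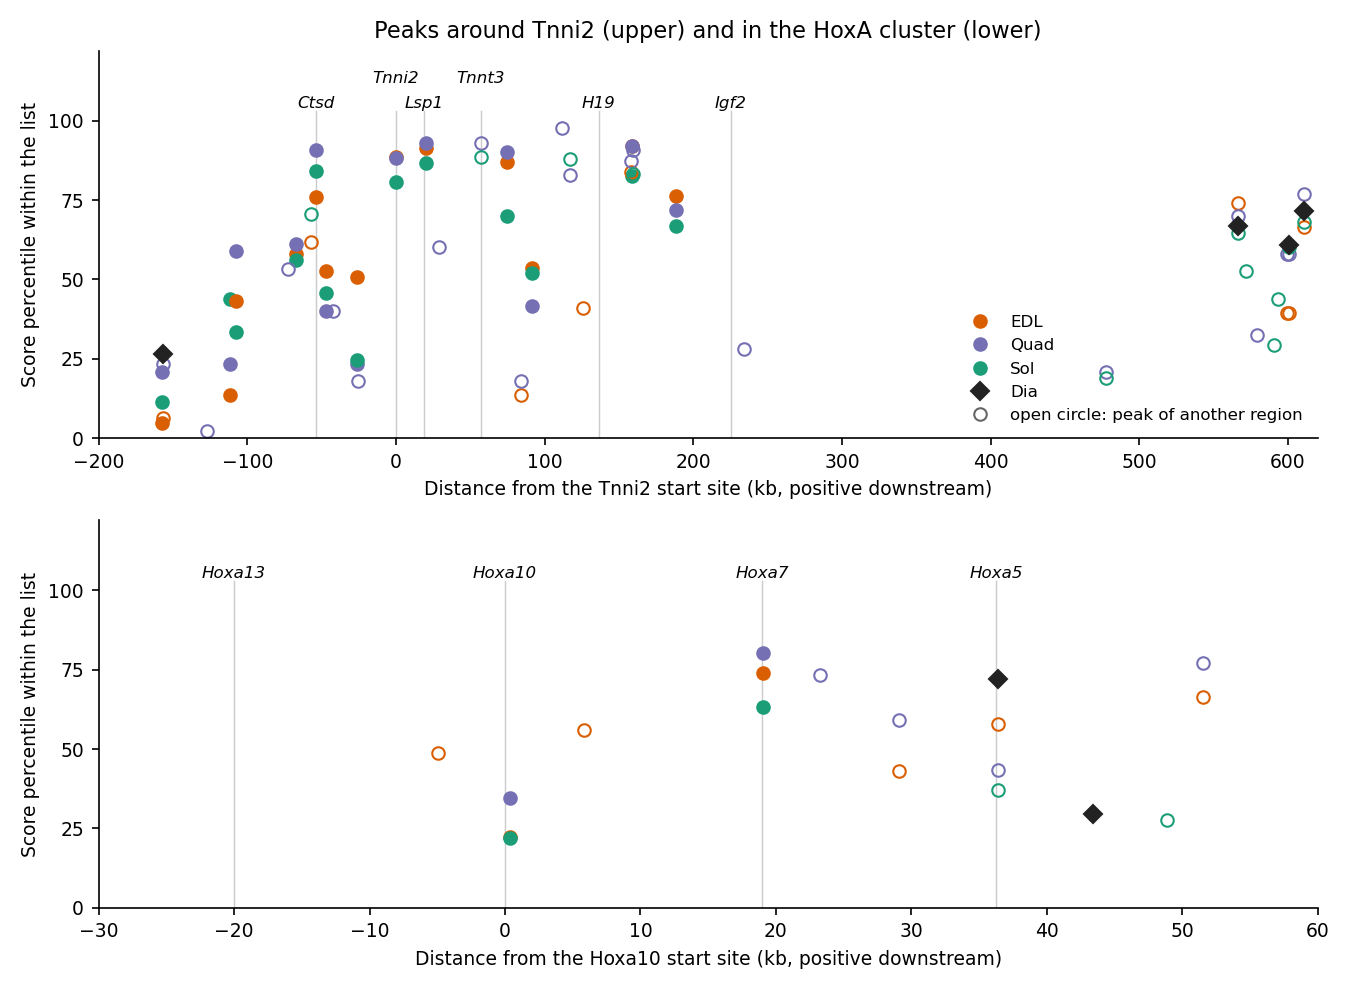
Score percentile within the list of each peak against distance in kb from the Tnni2 start site (upper) and the Hoxa10 start site (lower), in EDL, Quad, Sol and Dia. Filled circles belong to regions not called in Dia, and diamonds are Dia peaks. No Dia peak lies among the 12 filled regions around Tnni2 that fall between the flanking Dia peaks, and in the HoxA cluster none lies between Hoxa5 and Hoxa13.

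The HoxA and HoxC clusters held 3 regions of the selection. Within HoxA 14 regions held a peak of any list and 5 of them a Dia peak. The Dia peak at Hoxa5 was followed by 435729 bp without one (chr6:52204599-52640327), past the posterior end of the cluster. That stretch held 17 EDL, 18 Quad and 6 Sol peaks and 5 regions not called in Dia. One of the 5, annotated at -3179 bp from the Hoxa7 TSS and overlapping the start of the longer GENCODE Hoxa7 gene model, was at percentiles 73.9, 80.4 and 63.2. Another, in the 5′ untranslated exon of Hoxa10, was at 22.3, 34.4 and 21.9. In HoxC, 1 of 6 regions held a Dia peak, 8835 bp downstream of the Hoxc8 TSS, and the Hoxc10 promoter was called in EDL (83.3), Quad (91.3) and Sol (72.7), with 32471 bp to the nearest Dia peak. HoxB and HoxD contained no region of the selection, and in HoxB 2 of 5 regions, at Hoxb5os and Hoxb2, held a Dia peak alone. A posterior gene outside the selection did carry a Dia peak, since the Hoxd9 5′ untranslated exon was called in EDL (30.1), Sol (29.3) and Dia (32.7) and not in Quad. Neither of the 2 3-hindlimb regions nearest to posterior paralogs had a Dia peak (34.2 to 100%), and of the 6 nearest to anterior paralogs 1 had none (3.01 to 56.4%), beside 23.1% of all 3-hindlimb regions, so the intervals overlapped. Among genes of limb identity and patterning, 14 of 39 such regions had no Dia peak, and outside promoters 13 of 30 (43.3%, 27.4 to 60.8%), beside 35.9% over all genes. Pitx1, which specifies hindlimb identity, had 2 regions, at -19488 bp from the TSS (percentiles 67.1, 82.1 and 39.3) and at -135979 bp (34.3, 28.0 and 41.6). A Dia peak was assigned to Pitx1, and the nearest Dia peak lay 39363 bp from the first region. Zfhx3 had the highest-scored region of this list (44.3, 69.8 and 71.6) and 3 of its 4 3-hindlimb regions in the selection. All such regions nearest to Tbx2, Tbx3, Lbx1, Msx1, Meis1 and Meox2 held a Dia peak. Gli3, a Hedgehog effector of limb patterning, had its promoter (27.1, 65.8 and 21.9) and a distal region, and no Dia peak.

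The lists of muscle genes were compared outside promoters, since the promoter share differs between lists, and their intervals were not adjusted for the number of lists. Calcium handling genes had the highest share among lists with at least 10 such regions, 54.8% (34 of 62, 42.5 to 66.6%) against 35.9% over all genes. Of the 29 genes 22 had a region not called in Dia, compared with 19.5% of all genes with a peak. The 29 genes held 82 3-hindlimb regions, beside 18858 such regions and 17157 genes in all. Shares of genes, here and below, are thus not matched for the number of regions per gene. With lists limited to their top 20000 peaks the calcium handling share was 47.5% (32.9 to 62.5%). The share over all genes outside promoters was not taken at that length, so this interval has no matching value. Among all 3-hindlimb regions, promoters included, 13.7% lacked a Dia peak at that length, against 23.1% in the full lists. The Ryr1 promoter (the sarcoplasmic reticulum calcium release channel) was at percentiles 85.3, 76.4 and 79.9 with a Dia peak 1197 bp away. Jph1, encoding the junctophilin that holds the release channel beside the membrane, had 3 of 8 regions, the highest at -22332 bp from the TSS at 74.4, 80.4 and 78.3. Stac3, an adaptor of the voltage sensor, had no Dia peak, and its promoter region was at 70.2, 73.3 and 69.9. Stim1, the store calcium sensor, had one in intron 1 at 70.7, 71.9 and 76.2, and Hrc and Jsrp1 had 1 each. The Stim1, Hrc and Jsrp1 regions each had a Dia peak within 10 kb. All 3-hindlimb regions nearest to Rcan1, Cacna2d1, Casq1, Casq2 and Atp2a2 held a Dia peak, and at Srl 1 of 5 had none. In the 4 lists together, genes of this group had 121 EDL, 138 Quad, 114 Sol and 55 Dia peaks.

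For fast-fibre genes 9 of 18 regions outside promoters had no Dia peak (29.0 to 71.0%), and for slow-fibre genes the share was 33.3% (5 of 15, 15.2 to 58.3%), so the intervals overlapped each other and both contained 35.9%. The Tnnc2 promoter (fast skeletal troponin C) was at percentiles 89.4, 86.8 and 73.7, and no Dia peak was assigned to Tnnc2, although one lay within 10 kb. Myl1, the fast essential light chain, had 4 regions, the highest in intron 1 at 72.9, 59.0 and 43.8, and the Mylk4 intron 1 region was at 83.0, 81.3 and 46.9. The Sol percentile was the lowest of the 3 in each of these highest regions, as it was in 43.7% of all 4361. Among slow-fibre genes, the Myoz2 region was at 73.9, 73.3 and 83.1 with a Dia peak 454 bp away, Mybpc1 had 3 regions, the highest at 65.1, 56.8 and 73.7, and a region nearest to Myh2 was at 11.9, 23.4 and 9.81. Sol was the highest at Myoz2 and Mybpc1 and the lowest at Myh2.

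Sarcomere and Z-disc genes had a share of 35.1% outside promoters (20 of 57), close to the 35.9% over all genes. Neb, which encodes the thin-filament ruler nebulin, had 3 regions, in intron 3 at percentiles 83.0, 82.9 and 79.9 and in intron 1 at 70.2, 77.9 and 68.6 and at 82.4, 62.1 and 60.3. All 3 lay in a stretch of 285236 bp without a Dia peak. A region at -2183 bp from the TSS of Flnc, encoding filamin C, was at 80.3, 90.6 and 87.1 with no Dia peak within 36452 bp, and one at -15057 bp from the Des TSS was at 84.5, 82.5 and 75.7. The Ttn intron 1 region (89.6, 84.0 and 80.8) and the Pdlim7 intron 1 region (82.4, 85.9 and 81.6) had a Dia peak within 526 and 512 bp.

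Of the 50 myogenic and fibre-type regulators 27 had a region not called in Dia, 41 of their 108 3-hindlimb regions outside promoters (38.0%, 29.4 to 47.4%), near the 35.9% over all genes. The Myod1 promoter was at percentiles 77.1, 77.9 and 70.5, and no Dia peak was assigned to this gene, although one lay 4763 bp away. Nfix, which switches fetal to adult muscle gene programs, had an intron 2 region at 75.8, 73.3 and 73.7 and no Dia peak. The Six5 promoter was at 81.7, 92.7 and 90.4 with a Dia peak 109 bp away, and Klf15, a glucocorticoid-responsive metabolic regulator, had an intron 2 region at 78.02, 85.9 and 84.5. Nfatc1, the calcineurin-dependent factor of slow fibres, had 3 regions and Maf, a factor of fast IIb fibres, had 2.

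At the neuromuscular junction 11 of 24 regions outside promoters had no Dia peak (45.8%, 27.9 to 64.9%), an interval that held the 35.9% over all genes. The promoter of Rapsn, which clusters acetylcholine receptors, was at percentiles 67.8, 71.2 and 64.6, and no Dia peak was assigned to the gene. Lrp4, the agrin receptor, had 2 regions in intron 1 at 61.0, 62.1 and 74.2 and at 57.9, 55.7 and 76.6, and Scn4a, the muscle sodium channel, had one at -1605 bp from the TSS at 69.0, 71.2 and 72.1 with 76279 bp to a Dia peak.

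Metabolic genes divided by pathway only within wide intervals. For glycolysis and glycogen the share was 41.5% (17 of 41, 27.8 to 56.6%), for fatty acid uptake and oxidation 27.3% (6 of 22, 13.2 to 48.2%) and for insulin, growth and atrophy signalling 31.2% (15 of 48, 19.9 to 45.3%), each interval holding 35.9%. Pgm2 had 4 regions, the highest in intron 1 (81.4, 91.1 and 86.7) with a Dia peak 9 bp away and in intron 7 (91.9, 93.9 and 79.6) with none within 18711 bp. The Pgam2 intron 2 region, at the muscle phosphoglycerate mutase, was at 90.9, 93.3 and 76.2. The Cpt1b promoter (the muscle carnitine palmitoyltransferase) was at 63.2, 80.4 and 89.7 and the Pnpla2 promoter (adipose triglyceride lipase) at 82.1, 85.0 and 82.3. No Dia peak was assigned to either gene, although each region had a Dia peak within 10 kb. A region at -20966 bp from the TSS of Ddit4, an mTOR inhibitor induced by glucocorticoids, was at 82.1, 79.4 and 84.3.

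**Figure D5:**
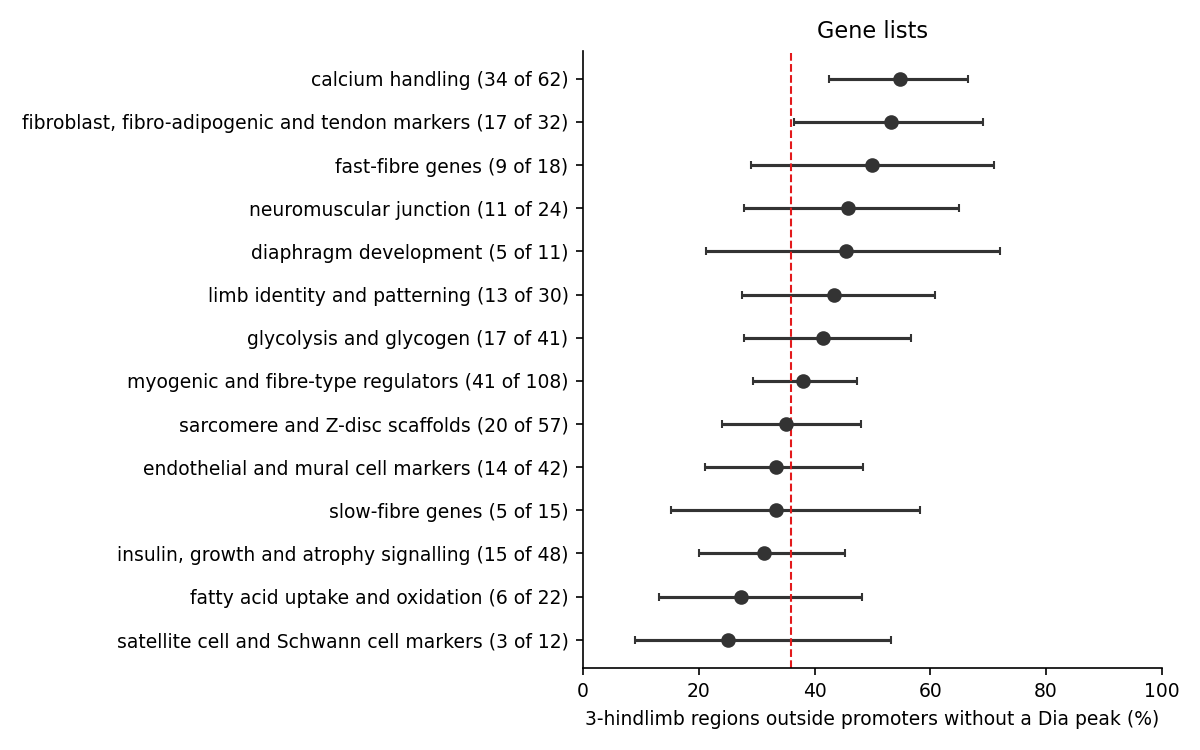
Share (%) of 3-hindlimb regions outside promoters without a Dia peak for each list with at least 10 such regions, with 95% Wilson intervals and counts. The dashed line is the 35.9% over all genes. Calcium handling (34 of 62) and fibroblast, fibro-adipogenic and tendon markers (17 of 32) were the lists whose interval lay above the line.

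Markers of other cell types were also among the nearest genes. Fibroblast, fibro-adipogenic and tendon markers had a share of 53.1% outside promoters (17 of 32, 36.5 to 69.1%) beside 35.9% over all genes. Of the 23 genes with a peak 14 had a region not called in Dia, and the highest-scored were at Scx, Egr1, Cd34 and Col6a3. The lowest hindlimb percentile of the highest region was 73.9 at Scx, but 5.06 at Dcn, 2.97 at Comp and 1.85 at Postn. All 3-hindlimb regions nearest to Col6a2, Fbn1 and Fn1 held a Dia peak. No score-limited share was taken for this list, whose genes had 67 EDL, 106 Quad, 55 Sol and 32 Dia peaks. Endothelial and mural cell markers had a share of 33.3% (14 of 42), near the 35.9%, and 84, 105, 83 and 50 peaks. Esam was at percentiles 71.3, 89.8 and 69.3, and 2 regions lay upstream of Egfl7. All 3-hindlimb regions nearest to Tek, Tie1, Sox17, Sox18, Notch3 and Myh11 held a Dia peak. Of leukocyte markers 2 of 13 genes, of mesothelial and adipocyte markers 1 of 15 and of satellite and Schwann cell markers 5 of 15 had a region not called in Dia, and among genes of diaphragm development 5 of 19, beside 19.5% of all genes with a peak. The mesothelial and adipocyte list had 18 Dia peaks beside 14 in EDL, 24 in Quad and 11 in Sol. The part of cell composition in the selection was not tested.

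Motif content was compared over 200 bp at the centre of the EDL peak, between 3868 of the regions not called in Dia and 6895 regions of all 4 lists, all outside promoters and on assembled chromosomes. The muscle E-box (CAGCTG) occurred in 27.7% of regions not called in Dia, 3.44 points more (1.71 to 5.18), and in 9.51% of windows of the same length 2 kb away. The MEF2 site occurred in 6.95%, 1.27 points more (0.318 to 2.26), against 1.58% of flanking windows, although with lists limited to their top 20000 peaks the interval held 0 (-0.259 to 2.67). The MEF3 site (TCAGGTT) occurred in 4.45%, 1.18 points more (0.431 to 1.98). For AP-1 (TGACTCA or TGAGTCA, 9.54%), NFAT (TGGAAA, 21.6%), TEAD (GGAATGT, 4.06%), RUNX (TGTGGTT, 3.85%), SRF (1.19%), the glucocorticoid receptor (GNACANNNTGTNC, 1.84%), T-box (GGTGTGA, 3.05%), the nuclear receptor site (AAGGTCA, 5.66%) and its extended ERR form (TCAAGGTCA, 0.414%, which contains the former) the interval of the difference held 0. For NFAT it lay above 0 over the whole EDL peak (1.83 points, 0.218 to 3.47) and for regions with no Dia peak within 10 kb (2.05 points, 0.195 to 3.97). The Pitx site (GGATTA, 6.08%) was 0.898 points more frequent with an interval from 0.000597 to 1.84, and its share was lower than the 7.34% of flanking windows. Against regions of all 4 lists in the same percentile range the E-box (2.54 points, 0.721 to 4.36), MEF2 (1.21, 0.211 to 2.24) and MEF3 (1.16, 0.372 to 1.99) were again more frequent, and the Pitx interval held 0 (-0.0427 to 1.87).

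CG-rich sites were less frequent. The Sp/KLF site (GGGCGG) occurred in 8.74% of regions not called in Dia and 19.1% of regions of all 4 lists, a difference of -10.4 points (-11.7 to -9.09), and ETS (CCGGAAG, 1.99%), NRF1 (GCGCATGC, 0.414%) and CTCF (CCANNAGNNGGC, 4.76%) differed by -1.77, -0.660 and -1.17 points. The median GC content of the windows was 51.5% and 53.5%. Against the 877 regions outside promoters that were missing from Sol only, MEF2 was 3.99 points more frequent (2.45 to 5.25), the E-box 5.37 points more (2.17 to 8.36), Pitx 2.65 (1.07 to 3.94), MEF3 1.94 (0.540 to 3.03) and the glucocorticoid receptor site 1.04 (0.116 to 1.66), whereas CTCF differed by -6.42 points (-8.76 to -4.37). The regions missing from Sol only also differed from regions of all 4 lists. MEF2 occurred in 2.96% of them against 5.69%, Pitx in 3.42% against 5.18%, the glucocorticoid receptor site in 0.798% against 1.54% and CTCF in 11.2% against 5.93%. The differences from the 877 regions are therefore not traits of regions not called in Dia alone. The intervals were not adjusted for the 17 motifs, and a match is a description of the letters and not of binding.

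The selection was spread over the genome. The share of 3-hindlimb regions without a Dia peak ranged from 17.1% on chromosome 19 to 27.8% on chromosome 18 among autosomes, and it was 15.9% (58 of 365) on chromosome X.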

How the data were processed

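ATAC-seq was performed on EDL, Quad, Sol and Dia, and each deposited file is 1 annotated peak list of a muscle. The authors pulverized frozen muscle, treated the nuclei with transposase and aligned reads to mm10 with Bowtie2. Peaks were called and annotated with HOMER, as the submitters' processing notes and the study's methods state. The study's figure legends give numbers per group for ATAC-seq panels. They do not say how many animals or replicates each deposited pooled list combines. The deposited peak score is a signal, tags scaled to 10000000, and the deposited focus ratio is a fraction that was read but supports no result. Depth was inferred from the steps of scores under 10, which were whole tags within 0.006 for 100% of peaks in each list.

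Peaks were merged in Python 3.11.15 (pandas 2.3.3, NumPy 2.4.6) where they overlapped by at least 1 bp. Annotation, nearest gene and distance to TSS were taken from the peak with the highest percentile. Shares carry 95% Wilson intervals and differences Newcombe intervals. Sequences were read with samtools 1.23.1 and pysam 0.24.0 from the GRCm38 RefSeq genome, in which all peaks on assembled chromosomes lay within the chromosome ends, and exons came from GENCODE. Merging, distances, intervals and motif search were tested on simulated data. No column of another series was found.

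The regions and the gene lists were chosen with earlier results of these data known. Genes were named by rule: the 10 with the most regions, the 10 regions with the highest lowest percentile, the 10 such with no Dia peak within 10 kb, up to 6 genes a list, the 5 regions on each side of the selection boundary and the 10 genes with the most regions and no Dia peak. Loci in long stretches without a Dia peak, and the second set of sequences, were added after their values were seen. Alternatives were shorter lists, higher scores, 50% reciprocal overlap, a Dia peak within 500 bp, another promoter definition and the same score range. No test was run, since each muscle has 1 peak list. Some named items are not reported here.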

Additional observations from a re-analysis of the deposited data

How the results depend on the processing

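No paired analysis was possible because each muscle has 1 peak list. Limiting each list to its top 20000 peaks left 1796 regions, 13.7% of 3-hindlimb regions and 10.6% of genes. Their promoter share was 15.6% (-44.2 points from regions of all 4 lists), their median lowest percentile 52.8, and 47.4% had no Dia peak within 10 kb. In the upper 50% of each list, in the same order, the values were 2260, 21.2%, 15.0%, 18.9% (-50.8 points), 61.0 and 68.6%. With hindlimb scores at least 2 times the lowest Dia score they were 895, 8.79%, 4.69%, 20.8% (-43.3 points), 64.6 and 33.2%. With 50% reciprocal overlap the share was 25.5%, that of genes 18.8%, that of promoters 15.4% (-38.2 points) and that beyond 10 kb 53.7%. With a Dia peak within 500 bp counted as Dia they were 21.3%, 18.1%, 8.96% (-43.1 points) and 67.5%. Promoters taken as a TSS within 1 kb made up 14.5%, and limiting regions of all 4 lists to the same percentile range gave -28.3 points. No direction reversed. The other 15 values stayed within the counting interval or within 1.5 times the main count. Some of these had little or no room to move. The same percentile range was applied only to regions of all 4 lists, so the promoter share of the selection itself could not change. Autosomes and chromosome X alone kept 4358 of the 4361 regions. For the median percentile the limit was the wider range between the quartiles of the regions (14.5 to 49.0). The causes were not tested.

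With the top 20000 peaks of each list, the E-box difference was 5.20 points and the MEF2 (-0.259 to 2.67) and CTCF (-2.16 to 0.179) intervals held 0. The calcium handling share was 47.5% (32.9 to 62.5%), with no share over all genes outside promoters taken at that length. Of the 3 Hox regions 2 were left, as they were with 50% reciprocal overlap, where the Tnni2 stretch held 9 regions. The last 3 checks were chosen after seeing the data. The part of depth in the missing Dia calls was not tested, and cell composition cannot be told apart from accessibility per nucleus.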
